A study of Mus musculus with 15 samples.

Results

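The chemokine genes Ccl1, Ccl3, Ccl4, Ccl5, Ccl6 and Ccl9 were followed in D1 cells, a dendritic cell (DC) line kept in long-term culture from the spleen of C57BL/6 mice. They were chosen by name, each through the probe set whose platform annotation carries that symbol and no other. All 6 were measured, each by 1 probe set, among 19937 genes tested. The 15 arrays formed 5 groups of 3: nontreated cells, curdlan alone (2 h and 4 h as separate groups), and curdlan combined with FK506 (likewise 2 h and 4 h). Curdlan is a beta-glucan from bacteria and a ligand of dectin-1, and the dose was 10 µg/ml. FK506 inhibits the phosphatase calcineurin, on which NFAT transcription factors depend to reach the nucleus. The cells are 1 growth-factor-dependent line rather than DCs taken from animals, and FK506 given without curdlan is not analysed here. The labels call the 3 arrays of a group biological replicates without saying that they came from separate cultures, so the p-values measure the spread between these samples.

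CC chemokines are small secreted proteins that draw leukocytes along a gradient by binding receptors coupled to G proteins. CCL1 acts through CCR8, a receptor of skin-homing, type 2 helper and regulatory T cells. The macrophage inflammatory proteins CCL3 (MIP-1 alpha) and CCL4 (MIP-1 beta), together with CCL5 (RANTES), recruit monocytes, effector T cells and NK cells, and CCL3 and CCL5 bind CCR1. CCL6 (C10) and CCL9 (MIP-1 gamma) are rodent chemokines of myeloid cells that bind CCR1. Activated DCs are a known source of these proteins at sites of infection. In the RefSeq annotation Ccl5, Ccl9, Ccl6, Ccl3 and Ccl4 follow one another on mouse chromosome 11 with no other protein-coding gene starting between them. Ccl1 lies 25 protein-coding genes away, beside Ccl2, Ccl7, Ccl11, Ccl12 and Ccl8.

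The regions around the starts of Ccl1, Ccl3, Ccl9 and Ccl6 are shown to compare their motifs. They are RefSeq sequences of build GRCm38.p6, the 4 that the sequence table held for the 6 genes, and run from 250 bases before to 50 bases after the annotated start, 5′ to 3′ along the gene. Capitals mark the NFAT core GGAAA on either strand (TTTCC on the other) and the TATA box letters TATAAA on either strand.
Ccl1, chr11:82179763-82180062, minus strand: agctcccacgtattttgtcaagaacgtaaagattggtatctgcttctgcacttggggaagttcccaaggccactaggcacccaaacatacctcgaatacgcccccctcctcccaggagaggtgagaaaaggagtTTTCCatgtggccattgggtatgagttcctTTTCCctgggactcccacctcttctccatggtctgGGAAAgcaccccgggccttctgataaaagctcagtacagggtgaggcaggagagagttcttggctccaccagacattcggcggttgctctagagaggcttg
Ccl3, chr11:83649329-83649628, minus strand: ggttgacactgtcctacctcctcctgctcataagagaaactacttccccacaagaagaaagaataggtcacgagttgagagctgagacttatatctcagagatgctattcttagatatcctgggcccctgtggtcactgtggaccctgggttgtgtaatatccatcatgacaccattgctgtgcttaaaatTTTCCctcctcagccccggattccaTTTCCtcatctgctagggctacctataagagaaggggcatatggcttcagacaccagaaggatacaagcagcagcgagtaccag
Ccl9, chr11:83578587-83578886, minus strand: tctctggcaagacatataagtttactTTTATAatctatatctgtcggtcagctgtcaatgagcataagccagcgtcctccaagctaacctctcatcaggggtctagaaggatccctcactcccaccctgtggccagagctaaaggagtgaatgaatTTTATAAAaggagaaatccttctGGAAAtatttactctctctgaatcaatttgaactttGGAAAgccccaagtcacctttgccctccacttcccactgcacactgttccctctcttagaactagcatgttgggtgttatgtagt
Ccl6, chr11:83593038-83593337, minus strand: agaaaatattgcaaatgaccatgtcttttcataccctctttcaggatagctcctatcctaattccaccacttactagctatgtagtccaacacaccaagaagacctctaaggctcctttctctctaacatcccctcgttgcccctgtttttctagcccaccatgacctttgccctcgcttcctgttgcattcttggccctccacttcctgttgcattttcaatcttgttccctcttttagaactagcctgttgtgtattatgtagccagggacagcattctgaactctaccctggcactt

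The Ccl1 region held 3 copies of the NFAT core, at positions -116, -86 and -51 relative to the start. Of 32851 promoters of the same length, 9.42% held at least 3 copies. In 2 of the Ccl1 copies the letters extended to the longer NFAT motif GGAAAA, which overlaps the core, and 3.62% of all promoters held 2 or more of these. The Ccl3 region held 2 cores, at -59 and -34, the first of them also a match to GGAAAA. The Ccl9 region held 2 cores, at -71 and -35, with 1 match between them at -53 to the AP-1 motif TGANTCA. That search allowed any middle base, and the letters there are TGAATCA. The region also held 3 matches to TATAAA, of which those at -94 and -92 overlap on opposite strands of 1 stretch, TTTATAAA. At least 2 cores were found in 26.7% of all promoters, at least 1 GGAAAA in 23.4%, TGANTCA in 7.81% and TATAAA in 13.6%. The Ccl6 region held none of these motifs, and 61.3% of all promoters held at least 1 core. The NF-kB motif was searched in 1 form, GGANTTTCC, which contains the NFAT core on the other strand. It occurred in 1.25% of promoters and in none of the 4 regions, and other forms of the NF-kB site were not searched. A local alignment paired 74 columns of the Ccl6 and Ccl9 regions with 79.7% identity, against at most 15 columns for the other 5 pairs. The aligned stretch ran from -59 to 15 in Ccl6 and from -18 to 49 in Ccl9, so the motif matches of Ccl9 lie outside it. These are matches of letters, and binding was not measured on these arrays. The study mapped binding of the family member NFATc2 in D1 cells by a separate sequencing assay. It lists Ccl1, Ccl3, Ccl4, Ccl5, Ccl6 and Ccl9 among the targets, each binding site being assigned to the nearest gene. The lack of a core in the Ccl6 region therefore does not show that Ccl6 lacks an NFAT site elsewhere.

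**Figure D1:**
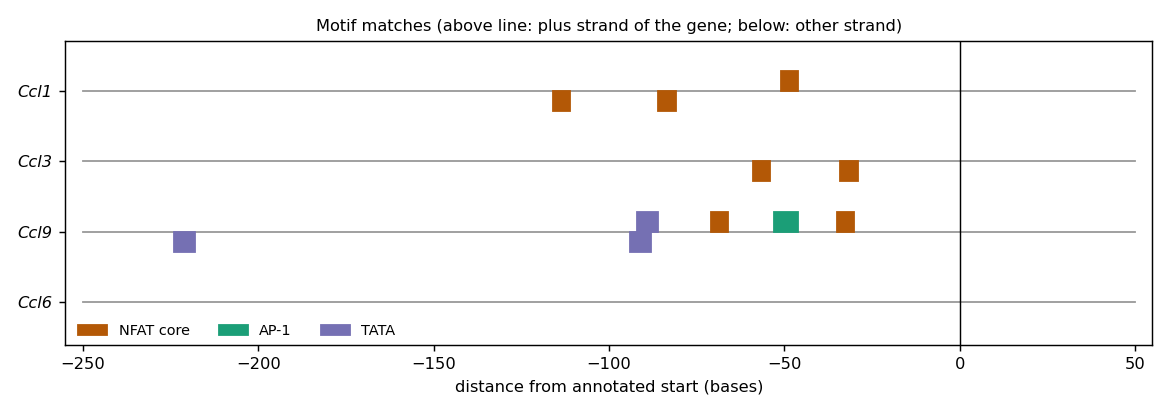
Motif matches around the starts of 4 chemokine genes. The horizontal axis is the distance from the annotated start in bases, and blocks above or below each line are matches on the strand of the gene or on the other strand. Ccl1 has 3 NFAT cores, Ccl3 and Ccl9 have 2 each, and Ccl6 has none.

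The arrays were compared before the results. Within a group the mean correlation of an array with the others was between 0.993 and 0.999 over all genes. The most distant arrays were replicate 1 of the nontreated group and replicate 3 of the curdlan 2 h group, with array weights of 0.0781 and 0.119. All 10 markers of conventional DCs lay above the lower quartile of gene means (log2 level 5.28), Itgax and Clec7a among them. Their means over the 15 arrays ran from 5.83 for Flt3 to 12.91 for H2-Ab1. Below the quartile lay 6 of 7 mast cell and basophil markers, 4 of 6 T cell and 4 of 7 NK cell markers. So did 4 of 8 neutrophil, 2 of 5 B cell and 2 of 8 fibroblast markers. The 6 macrophage markers measured were also well above the quartile. Cd5 of the T cell list (9.35) and Klrd1 of the NK cell list (9.75) were high too. Passing the quartile therefore does not by itself separate DCs from other cells. Actb differed from nontreated cells by at most 0.02 in any group, and Rcan1, a calcineurin inhibitor that NFAT induces, rose by 1.38 ± 0.06 (log2, SE) with curdlan at 2 h and was lowered by FK506 at both times.

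Curdlan was compared with nontreated cells to ask which of these chemokines respond to dectin-1 stimulation. Ccl1, Ccl3, Ccl4 and Ccl9 rose at 2 h, which is 4 of 6 against 2.2% of all genes called higher. At 4 h Ccl5 had joined them, 5 of 6 against 5.05%. A gene was called at a limma adjusted p under 0.05 over all genes together with a change of at least 1.5-fold. The median log2 fold change of the 6 genes was 2.32 at 2 h, where the median of all genes was -0.04. At 4 h the 6 ranged from 0.13 for Ccl6 to 6.42 for Ccl1, and the median of all genes was -0.12. The study itself picked these chemokines out on the same arrays, Ccl3 and Ccl9 as well as Ccl1, Ccl4 and Ccl5, so their direction is not independent evidence. In a bulk sample, more cells making a chemokine and more RNA per cell cannot be told apart. The labels give no time for the nontreated arrays, which are the baseline at both 2 h and 4 h. A change with time in culture therefore cannot be told apart from the curdlan response in these comparisons.

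**Figure D2:**
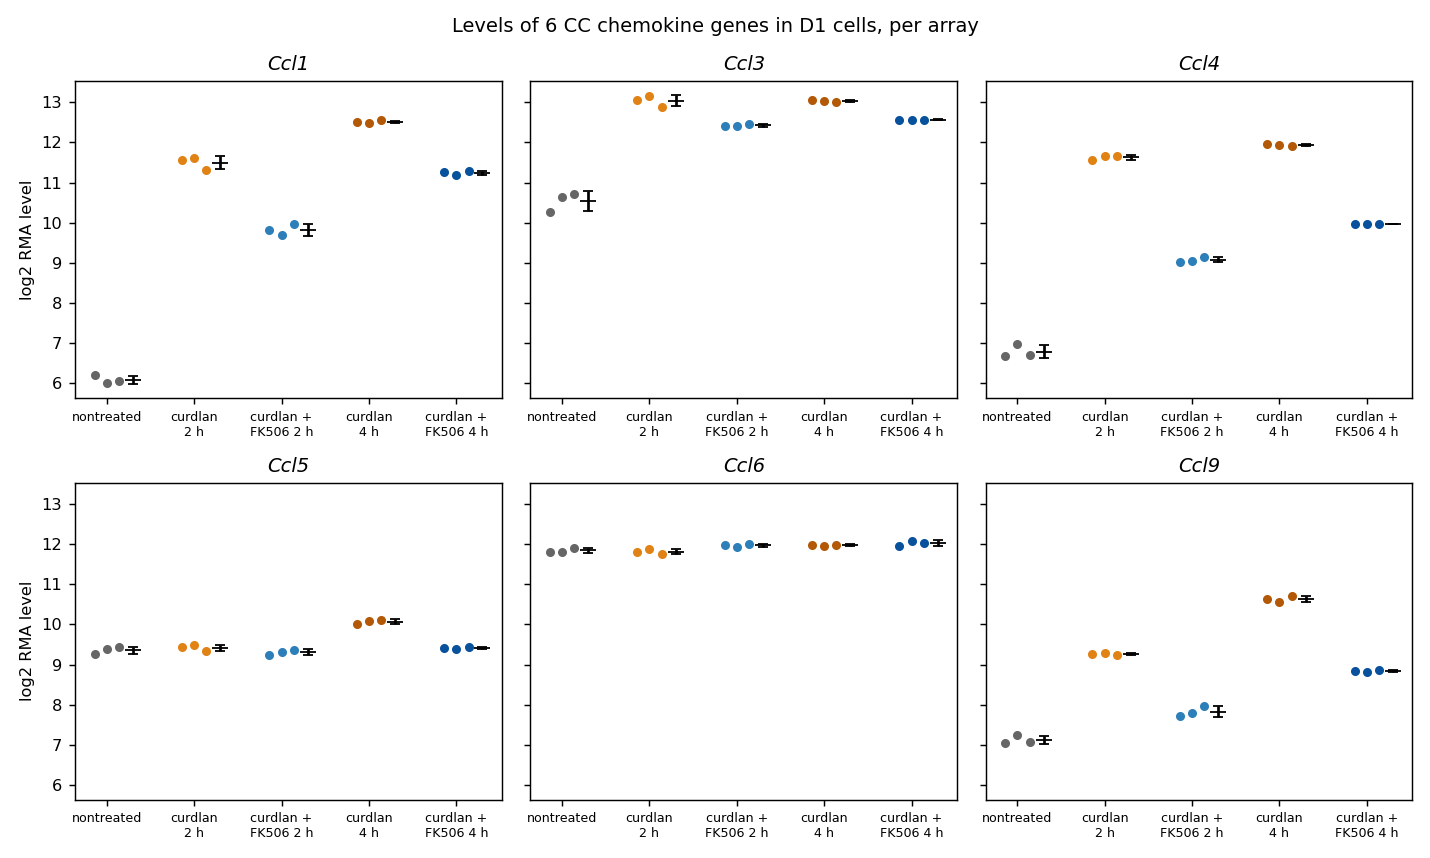
Log2 RMA level (vertical axis) of the 6 chemokine genes in the 5 groups (horizontal axis), points being single arrays and black bars the mean ± SD (n = 3). Ccl1, Ccl4 and Ccl9 are lower with FK506 than with curdlan alone at both times, Ccl5 is higher only with curdlan at 4 h, and Ccl6 stays between 11.76 and 12.08 on every array.

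Ccl1, the ligand of CCR8, had the widest range. Its log2 level in the nontreated arrays was 6.20, 6.01 and 6.07, and it was 11.55, 11.61 and 11.31 with curdlan at 2 h and 12.50, 12.48 and 12.55 at 4 h. With FK506 it stood at 9.81, 9.68 and 9.97 at 2 h and at 11.25, 11.19 and 11.29 at 4 h. The 5 groups did not overlap and ran from nontreated through FK506 2 h, FK506 4 h and curdlan 2 h to curdlan 4 h. The step from FK506 4 h to curdlan 2 h was narrow, with 0.02 between the nearest arrays. Ccl1 was 42.2-fold above nontreated cells at 2 h and 85.5-fold at 4 h (limma adjusted p = 2.16e-14 and 7.34e-15). The deposited values carry no call of detection above background, so whether the nontreated level stood above it was not tested, and the folds against that level may be understated. In the ranking of all genes by rise it was number 5 at 2 h and number 3 at 4 h.

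Ccl4, which encodes MIP-1 beta, ranked next to Ccl1 by rise with curdlan at 2 h, as number 6 of all genes. With curdlan alone it gained little afterwards. The nontreated arrays were at 6.68, 6.98 and 6.71, those with curdlan at 11.56, 11.65 and 11.67 at 2 h and at 11.96, 11.93 and 11.92 at 4 h. The curdlan groups did not overlap, and the 4 h arrays were 0.31 ± 0.07 above those of 2 h (adjusted p = 0.0038), which is short of the fold threshold. With FK506 the level was 9.03, 9.05 and 9.15 at 2 h and 9.96, 9.96 and 9.97 at 4 h, between nontreated and curdlan. Against nontreated cells Ccl4 rose 28.6-fold at 2 h (log2 4.84 ± 0.07, adjusted p = 1.09e-14) and 35.5-fold at 4 h.

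Ccl3, whose product binds CCR1, was already high in nontreated cells. Those arrays were at 10.26, 10.65 and 10.72, with nontreated replicate 1 the lowest. Curdlan brought the level to 13.07, 13.15 and 12.89 at 2 h and to 13.04, 13.03 and 13.02 at 4 h, and the groups of both times overlapped. The rise was 5.63-fold at 2 h (2.49 ± 0.10, adjusted p = 3.08e-10) and 5.60-fold at 4 h. The highest value of any probe set on these arrays was 13.56. A flattening of the signal near that end of the scale was not tested. Without nontreated replicate 1 and curdlan 2 h replicate 3 the rises of Ccl3 were 2.42 and 2.34.

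Ccl9, a CCR1 ligand of myeloid cells, continued to rise between the times. From 7.05, 7.24 and 7.08 in nontreated cells it reached 9.26, 9.28 and 9.25 at 2 h and 10.64, 10.55 and 10.71 at 4 h. No array of one group overlapped another, and the order of the groups was that of Ccl1. The rise was 4.42-fold at 2 h (2.14 ± 0.07, adjusted p = 4.25e-11) and 11.4-fold at 4 h (3.51 ± 0.07, adjusted p = 1.83e-13). With FK506 the arrays were at 7.71, 7.79 and 7.97 at 2 h and at 8.83, 8.82 and 8.85 at 4 h.

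Ccl5, which encodes a ligand of CCR1 and CCR3, was raised at 4 h only among the curdlan comparisons. The nontreated arrays were at 9.26, 9.38 and 9.43 and overlapped those with curdlan at 2 h (9.44, 9.48 and 9.33), with FK506 at 2 h (9.23, 9.31 and 9.37) and with FK506 at 4 h (9.42, 9.39 and 9.44). With curdlan at 4 h the arrays were at 10.00, 10.09 and 10.12, above all others. The change was 0.06 ± 0.06 at 2 h (adjusted p = 0.597) and 0.72 ± 0.06 at 4 h (1.64-fold, adjusted p = 2.68e-07). The difference between 4 h and 2 h itself passed the test (0.65 ± 0.06, adjusted p = 1.61e-06).

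Ccl6, the other rodent CCR1 ligand, was expressed throughout and was called in no comparison. Its arrays were at 11.81, 11.81 and 11.91 in nontreated cells, 11.81, 11.88 and 11.76 with curdlan at 2 h, and 11.97, 11.95 and 11.99 at 4 h. The 5 group means spanned 0.21, and neighbouring groups overlapped except nontreated and FK506 2 h, which were 0.01 apart. With curdlan Ccl6 differed from nontreated cells by -0.03 ± 0.05 at 2 h (adjusted p = 0.809) and by 0.13 ± 0.05 at 4 h (adjusted p = 0.063). It passed the p threshold, short of the fold threshold, with FK506 at 4 h against nontreated cells (0.18 ± 0.05, adjusted p = 0.0156). The same held for curdlan at 4 h against 2 h (0.15 ± 0.05, adjusted p = 0.0356). Its neighbour Ccl9 rose at both times, and the cause of the difference between the 2 genes was not tested.

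Curdlan with FK506 was then compared with nontreated cells to see what was left of the response with calcineurin inhibited. Ccl1, Ccl3, Ccl4 and Ccl9 were still above nontreated cells at both times, 4 of 6 against 1.81% of all genes called higher at 2 h and 2.95% at 4 h. Ccl1 was 13.3-fold up at 2 h where curdlan alone gave 42.2-fold, and 35.6-fold at 4 h where curdlan alone gave 85.5-fold. Ccl4 was 4.89-fold up at 2 h and 9.06-fold at 4 h, and Ccl3 3.68-fold and 4.07-fold. Ccl9 was left with 1.63-fold at 2 h (0.71 ± 0.07, adjusted p = 6.51e-06) and 3.28-fold at 4 h. Ccl5 was at -0.05 ± 0.06 and 0.06 ± 0.06 with FK506, inside the spread of the nontreated arrays (adjusted p = 0.532 and 0.451). All of these comparisons share the 3 nontreated arrays.

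**Figure D3:**
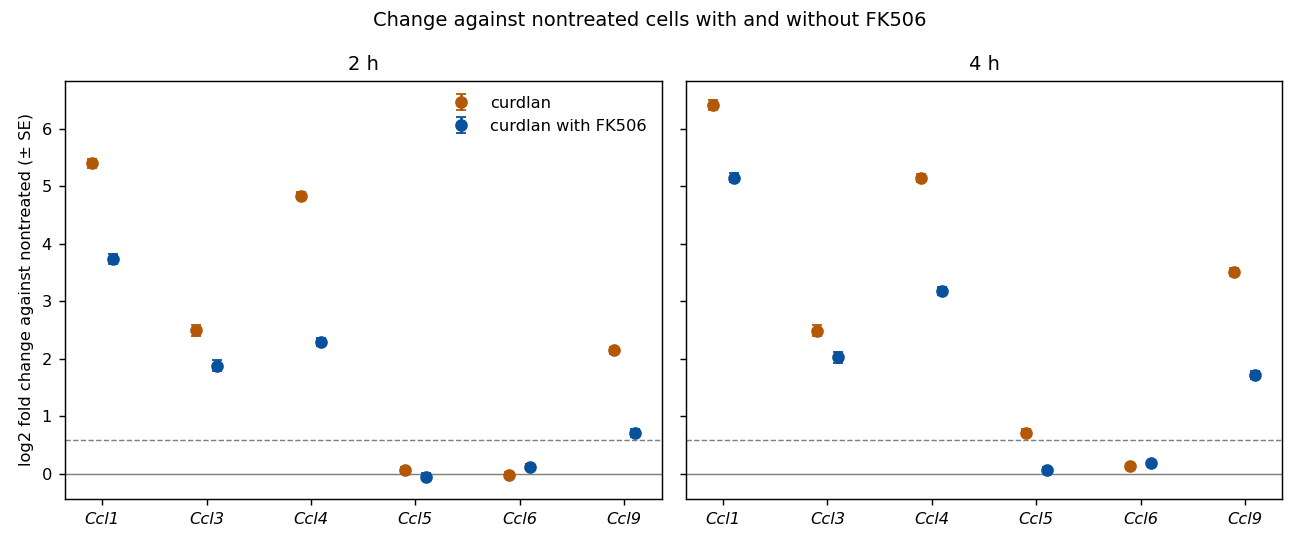
Log2 fold change against nontreated cells (vertical axis, ± SE of the limma fit, 3 arrays per group) for the 6 genes at 2 h (left) and 4 h (right), with curdlan and with curdlan plus FK506. The dashed line is the fold threshold of 1.5. Ccl1, Ccl3, Ccl4 and Ccl9 stay above it with FK506, while Ccl5 at 4 h passes it only with curdlan alone.

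Curdlan was compared directly with curdlan plus FK506 to find which levels depend on calcineurin. At 2 h FK506 lowered Ccl4, Ccl1, Ccl9 and Ccl3, 4 of 6 against 0.762% of all genes. At 4 h it lowered Ccl4, Ccl9, Ccl1 and Ccl5, 4 of 6 against 1.53%. None of the 6 was called higher with FK506, where 0.361% and 0.211% of all genes were. Ccl4 fell to 17.1% of its curdlan level at 2 h (log2 difference 2.55 ± 0.07, adjusted p = 4.24e-11) and to 25.5% at 4 h (1.97 ± 0.07, adjusted p = 5.02e-10). Ccl1 fell to 31.5% at 2 h (1.67 ± 0.08) and to 41.6% at 4 h (1.27 ± 0.08). Ccl9 fell to 36.9% at 2 h (1.44 ± 0.07) and to 28.7% at 4 h (1.80 ± 0.07). In the ranking of all genes by loss with FK506, Ccl4 was number 6 at 2 h and number 22 at 4 h.

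The other 3 genes lost less or nothing with FK506. Ccl3 fell to 65.4% of its curdlan level at 2 h (0.61 ± 0.10, adjusted p = 0.000957) and stood at 72.6% at 4 h (0.46 ± 0.10, adjusted p = 0.00535), short of the fold threshold although the arrays did not overlap. The call at 2 h was narrow, since it was lost without curdlan 2 h replicate 2 (0.55) and when array medians were subtracted (0.54). Ccl5 was at 92.5% at 2 h (0.11 ± 0.06, adjusted p = 0.31) and fell to 63.6% at 4 h (0.65 ± 0.06, adjusted p = 4.19e-06). Ccl6 was at 111% at 2 h (-0.15 ± 0.05, adjusted p = 0.0935) and 104% at 4 h (-0.05 ± 0.05, adjusted p = 0.677).

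Both times were also pooled in an exact permutation test that exchanged curdlan and FK506 labels within each time over 12 arrays. The smallest two-sided p this design allows is 0.005, and Ccl1, Ccl3, Ccl4 and Ccl9 reached it, with mean losses of 1.47, 0.54, 2.26 and 1.62. Ccl5 had a mean loss of 0.38 (exact p = 0.01). Ccl6 had a mean gain with FK506 (-0.10, exact p = 0.02), and with array medians subtracted the gain was -0.12 with an exact p of 0.07. For 2 pairs of related genes the difference between them was formed on each array and tested the same way. On this log2 scale the loss with FK506 was 1.72 larger for Ccl4 than for Ccl3, and 1.72 larger for Ccl9 than for Ccl6 (exact p = 0.005 for each of the 2 pairs). The first value holds only as far as the Ccl3 signal, which lay near the top of the range, is not flattened, and this was not tested. These are 8 tests, 6 of single genes and 2 of pairs, and their p values are not adjusted.

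**Figure D4:**
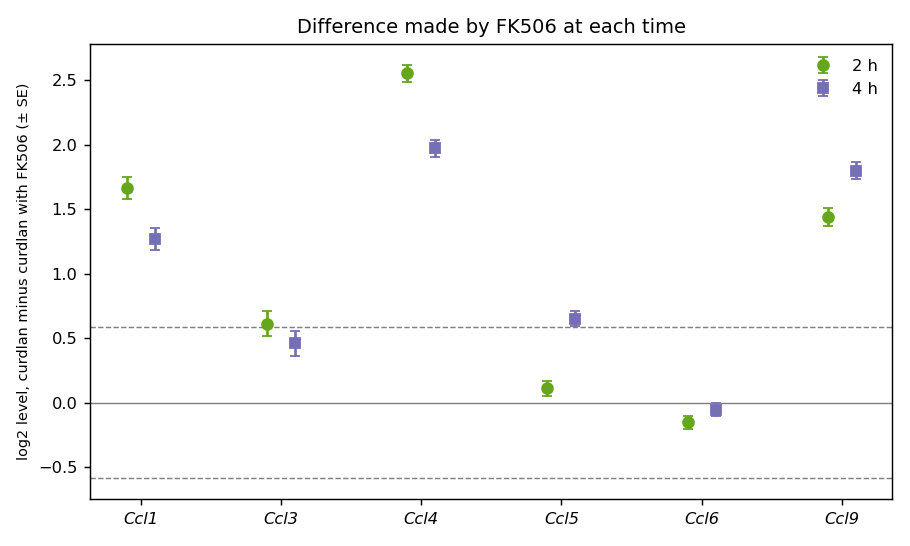
Log2 level with curdlan minus that with curdlan plus FK506 (vertical axis, ± SE of the limma fit) for the 6 genes at 2 h (circles) and 4 h (squares). Dashed lines mark a 1.5-fold difference in either direction. Ccl4 falls from 2.55 at 2 h to 1.97 at 4 h and Ccl5 goes from 0.11 to 0.65.

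In the same comparison 1 of 6 measured macrophage markers was called lower with FK506 at 2 h (0.762% of all genes) and 2 of 6 at 4 h (1.53%). The median difference of the list between curdlan and FK506 was 0.03 at 2 h and 0.06 at 4 h, where that of all genes was 0.03 and -0.03. The mean log2 level of the 6 markers was between 10.08 and 10.20 on the curdlan 2 h arrays and between 9.82 and 9.89 with FK506 at 2 h, and it was 10.06 to 10.11 against 9.61 to 9.66 at 4 h. Mertk, a receptor for dying cells, and the LPS coreceptor gene Cd14 were the ones called at 4 h. Mertk had a mean level of 8.38 with curdlan and 6.17 with FK506 at 4 h, and Cd14 of 7.41 and 6.51. Adgre1 and Fcgr1 were at 11.73 and 10.23 with curdlan and at 11.67 and 10.17 with FK506. Csf1r and Cd68 had the higher mean with FK506 at 4 h, 11.84 against 11.51 and 11.45 against 11.31. Of the NK cell list 1 of 7 was called lower with FK506 at each time, and of the T cell list 1 of 6 at 4 h. The part of these differences in the chemokine results was not tested. The median difference of the 10 DC markers between curdlan and FK506 was -0.09 at 2 h and 0.03 at 4 h. Of 13 genes of the calcineurin and NFAT list, Rcan1 was the 1 lowered by FK506 at each time (1.57 ± 0.06 at 2 h and 0.69 ± 0.06 at 4 h).

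The loss with FK506 was compared between the times. The median change of the 6 genes between 2 h and 4 h was -0.03, against -0.05 for all genes. At 1.5-fold limma called 0 of 6, where 1.23% of all genes were called in either direction. With no fold threshold it called 2 of 6, and 872 of the 19937 genes. The loss of Ccl4 shrank by 0.58 (-0.58 ± 0.10, adjusted p = 0.00299) and that of Ccl5 grew by 0.54 ± 0.08 (adjusted p = 0.00168), both past the p threshold and short of the fold threshold. Ccl1 changed by -0.40 ± 0.12 (adjusted p = 0.0867) and Ccl9 by 0.36 ± 0.10 (adjusted p = 0.0555). Ccl3 (-0.15 ± 0.14) and Ccl6 (0.10 ± 0.07) had adjusted p values of 0.549 and 0.461.

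Seen as a course over time, 3 of 6 genes rose from 2 h to 4 h with curdlan (2.79% of all genes were called higher) and 3 of 6 with curdlan plus FK506 (0.903%). Ccl1 rose in both settings, by 1.02 ± 0.08 with curdlan and by 1.42 ± 0.08 with FK506 present. Ccl9 rose by 1.37 ± 0.07 and 1.01 ± 0.07. Ccl4 passed with FK506 (0.89 ± 0.07) and not with curdlan (0.31), and Ccl5 passed with curdlan (0.65) and not with FK506 (0.11 ± 0.06). Ccl3 was at -0.01 and 0.14 (adjusted p = 0.962 and 0.514).

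The receptors and scavenging receptors of CC chemokines were measured on the same arrays. With curdlan 1 of 13 measured rose at 2 h, Ccrl2 (2.2% of all genes rose), and 3 of 13 at 4 h, Ccrl2, Ccr3 and Ccr7 (5.05%). FK506 lowered Ccrl2, an atypical receptor that presents chemerin, at both times. Ccr1, the receptor of Ccl3, Ccl5, Ccl6 and Ccl9, had group means between 10.57 and 10.94 and was called in no comparison, the largest difference being -0.36 ± 0.15 between curdlan and FK506 at 2 h (adjusted p = 0.204). Ccr8, the receptor of Ccl1, had group means between 4.11 and 4.32, below the lower quartile of gene means. The other receptors were called in no comparison. Their mean levels in nontreated cells were 4.09 for Ccr2, 5.36 for Ccr4, 5.41 for Ccr6, 4.57 for Ccr9, 6.12 for Ccr10, 4.70 for Ackr1, 6.42 for Ackr2 and 5.60 for Ackr4.

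Ccr3, a receptor of CCL5 and of eotaxins, had a level of 5.06 ± 0.21 (SD, n = 3) without treatment and 7.51 ± 0.33 after 4 h of curdlan. With FK506 it reached 7.23 ± 0.18, and the difference between the 2 groups did not pass (0.28 ± 0.16, SE, adjusted p = 0.403). Ccrl2 went from 7.82 ± 0.18 (SD, n = 3) to 10.16 ± 0.14 at 2 h and 10.59 ± 0.03 at 4 h with curdlan. With FK506 it was at 9.45 ± 0.03 and 9.21 ± 0.04. Ccr7, which guides DCs to lymph nodes, rose by 1.08 ± 0.06 (SE) with curdlan at 4 h and by 0.55 ± 0.06 with FK506, the latter short of the fold threshold. The median change of the 13 was 0.00 at 2 h and -0.05 at 4 h with curdlan.

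**Figure D5:**
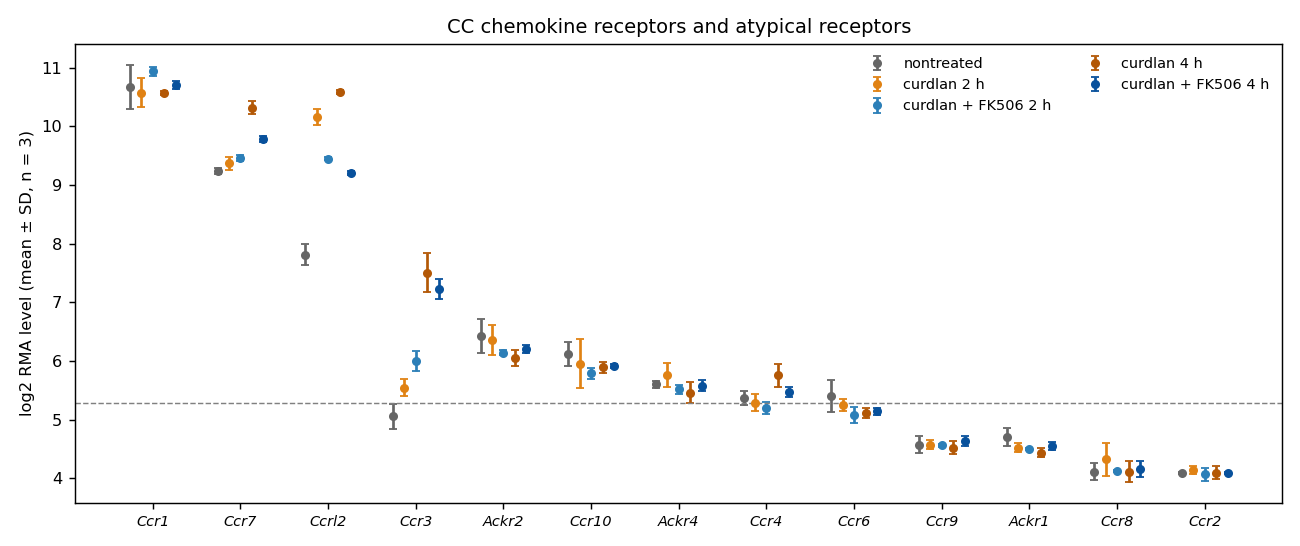
Log2 RMA level (vertical axis, mean ± SD of 3 arrays) of 13 CC chemokine receptors and atypical receptors in the 5 groups. The dashed line is the lower quartile of gene means (5.28). Ccrl2 is lower with FK506 at both times, Ccr3 rises by 4 h with and without FK506, and Ccr8 and Ccr2 lie below the line in all groups.

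Of 13 other CC chemokines measured, 5 rose with curdlan at 2 h (2.2% of all genes did) and 5 at 4 h (5.05%), while 4 were lowered by FK506 at 2 h (0.762%) and 4 at 4 h (1.53%). Ccl7, Ccl12, Ccl22 and Ccl24 were called with curdlan at both times, Ccl2 at 2 h (1.07 ± 0.05) and Ccl17 at 4 h. Ccl2 stood at 0.56 ± 0.05 at 4 h, just short of the fold threshold. The 4 lowered by FK506 were Ccl2, Ccl7, Ccl12 and Ccl24, of which Ccl2, Ccl7 and Ccl12 lie beside Ccl1 on chromosome 11. Ccl7, a monocyte chemokine, rose by 4.07 ± 0.05 at 2 h and 2.51 ± 0.05 at 4 h, and FK506 lowered it by 3.75 and 2.87. Ccl22, which like Ccl17 binds CCR4, rose by 1.79 ± 0.07 at 2 h and 2.49 ± 0.07 at 4 h and was not called lower with FK506. The losses with FK506 at 2 h and 4 h were 1.09 and 1.46 for Ccl2 and 0.85 and 1.84 for Ccl12, and Ccl24 fell to 61.3% of its curdlan level at 2 h and to 35.4% at 4 h. Ccl17 rose at 4 h by 0.71 ± 0.04 and stood at 0.46 ± 0.04 at 2 h (adjusted p = 5.85e-07), short of the fold threshold. The median change of the 13 was 0.12 with curdlan at 2 h. With FK506, Ccl7 stood at 0.32 ± 0.05 against nontreated cells at 2 h and Ccl2 at -0.02 ± 0.05, neither called, while Ccl1 stood at 3.73 ± 0.08. At 4 h with FK506, Ccl7 stood at -0.36 ± 0.05 (not called) and Ccl2 was lower than in nontreated cells (-0.89 ± 0.05, adjusted p = 7.12e-09), while Ccl1 stood at 5.15 ± 0.08.

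For each of the 6 chemokines, the genes with the most similar course were found by Pearson's r over the 15 arrays among genes whose group means spanned at least 1 log2 unit. Ccl1 was most like Il2 (r = 0.996), followed by Hivep3 (0.992) and Med21 (0.992). Ccl3 was most like Rasgef1b (0.998), the small Maf gene Maff (0.993) and the NF-kB regulator Nfkbid (0.993). Ccl4 was most like Ptgs2 (0.993), the inducible cyclooxygenase, then Edn1 (0.988) and Zc3h12c (0.988). Ccl5 was most like Slfn8 (0.977), the interferon regulatory factor Irf7 (0.975) and Abhd12b (0.975). Ccl9 was most like Tlcd1 (0.994), Tspan33 (0.982) and Sbds (0.981). The closest genes to Ccl6 were Airn (0.923), Zfp983 (0.911) and Pdcd1lg2 (0.882), beside a span of 0.21 in Ccl6 itself. Among the 6, r was 0.970 for Ccl1 with Ccl3, 0.957 for Ccl1 with Ccl4 and at most 0.381 for Ccl6 with any other. All of these values rest on the same 15 arrays and mostly follow the differences between the 5 groups.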

How the data were processed

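D1 cells in 5 groups of 3 were profiled on Affymetrix Mouse Gene 1.0 ST arrays. Per the labels and the study's methods, the authors deposited log2 RMA intensities from affy in R 2.15.2, which corrects background, quantile-normalizes and summarises probe sets by median polish. Quantile normalization hides a shift of all genes at once. Of 34760 probe sets, 21640 carried 1 symbol, and the one with the highest mean over the 15 arrays was kept per gene, which left 19937 genes. Intensities were not filtered. The 15 arrays entered a single limma model (version 3.58.1, R 4.3.3; lmFit, eBayes, two-sided) having a mean for each of the 5 groups, with p adjusted over all genes by the Benjamini-Hochberg method. A gene was called at an adjusted p under 0.05 and a fold of at least 1.5. SE values are moderated. The fit was tested on simulated data. Permutation tests, motif searches and alignments (Biopython 1.88) ran in Python 3.11.15. The number of arrays limits the precision.

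The 6 genes, the lists of receptors, other CC chemokines, calcineurin and NFAT genes and cell markers, and the comparisons were chosen with earlier results of these data known. The named genes are the 6, called members of these lists, receptors of the 6, Rcan1 and Actb as controls, and the 3 genes most like each of the 6. Alternatives covered normalization, centring, array weights, a replicate block, the variance model, the samples fitted, a filter on low values, thresholds, probe set choice and left-out arrays.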

Additional observations from a re-analysis of the deposited data

Results flagged for a closer look

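The loss of Ccl4 with FK506 differed between the times by a test of the difference itself, by -0.58 on the log2 scale from 2 h to 4 h (limma adjusted p = 0.00299). The loss of Ccl5 with FK506 also differed between the times, by 0.54 (limma adjusted p = 0.00168). The 2 differences have opposite signs, and neither reached 1.5-fold in the fit as reported.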

How the results depend on the processing

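Of 1008 results for a single chemokine under an alternative, 995 stayed on the same side of the threshold, 13 did not, and 0 reversed a called direction. The 6 chemokines gave 0 calls for a change in FK506 effect from 2 h to 4 h. There was 1 call after repeated quantile normalization (Ccl4, -0.65) and 1 with array medians subtracted (Ccl5, 0.64). With no fold threshold the calls were Ccl4 and Ccl5, 2 of 6 where 872 of 19937 genes were called. Leaving out 1 array gave between 0 and 1, the 1 being Ccl4 without curdlan 2 h replicate 1 (-0.61), curdlan 4 h replicate 1 (-0.59) or FK506 2 h replicate 3 (-0.62). With no fold threshold, 5 of 6 rather than 3 differed between 4 h and 2 h with curdlan, where 5191 of 19937 genes did. The exact test of Ccl6 over both times gave p = 0.07 with array medians subtracted (-0.12). The cause was not tested. Leaving out both outlying arrays changed no call of the 6.

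Counts over all genes moved by over 1.5 times with no fold threshold, to 4004 from 718 (curdlan 2 h), 7432 from 1835 (curdlan 4 h), 3515 from 468 and 5175 from 1073 (with FK506 at 2 h and 4 h against nontreated), 1509 from 224 and 2327 from 348 (FK506 effect at 2 h and 4 h), 5191 from 816 and 2788 from 336 (4 h against 2 h with curdlan and with FK506), and 872 from 246 (change in FK506 effect). With all probe sets fitted, more features being tested, they were 1088, 3464, 923, 1760 and, for 4 h against 2 h with curdlan, 1711. The replicate numbers were not treated as pairs in the main fit. Deviations were correlated above 0.1 in 9 of 30 same-numbered and in 17 of 60 different-numbered pairs. With 8 of 15 arrays correlating best with their own number, this check cannot exclude a pairing. With the number as a replicate block, 4 and 5 of the 6 were called with curdlan at 2 h and 4 h and 4 and 4 in the FK506 comparisons, as without it, and over all genes 717, 1834, 222 and 347.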
